A study of Sus scrofa with 6 samples.

Results

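The epidermal growth factor (EGF) family and its receptors were read out in pig (Sus scrofa) oviduct ampulla, the wide segment of the oviduct in which eggs are fertilised. The members were given as a list of 10 genes, chosen with earlier results of these data known: 6 ligands (EGF, TGFA, AREG, EREG, BTC and HBEGF), 3 receptors (EGFR, ERBB2 and ERBB3) and 1 inhibitor (ERRFI1). All 10 had a row among the 35670 genes of the count table, and 9 passed the filter on low counts that left 17920 genes for testing; AREG did not pass it. Messenger RNA was counted in ampulla tissue at 2 stages of the cycle, post-ovulatory (3 libraries) and early luteal (3 libraries). Both stages came from female pigs, no treatment is named in the labels, and breed and age were not given in the sources used here. The labels call the material oviduct ampullary cells, and the RNA came from tissue. Whether replicates were separate pigs is not stated in the labels; the p-values therefore describe only how these libraries vary, and that variation may be technical.

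EGF family ligands are made as membrane-anchored precursors that metalloproteases such as ADAM17 cut free, and they act on nearby cells. EGF, TGFA and AREG bind EGFR, while BTC, HBEGF and EREG bind EGFR and ERBB4. Of the neuregulins, NRG1 binds ERBB3 and ERBB4, and NRG4 binds ERBB4. ERBB2 has no known soluble ligand of its own and works as a partner of the other receptors, and ERBB3 has a weak kinase and signals through its partners, mainly towards phosphoinositide 3-kinase. ERRFI1, also called MIG6, is induced by receptor signalling and binds the kinase domain of the receptors to shut it down. In reproductive tissues EGFR ligands are best known for relaying the ovulatory signal to the cells around the egg, and oviduct epithelium and early embryos are known to carry EGF receptors.

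The library totals ran from 7370723 to 30954222 counts, and a count of 3, taken as the floor, corresponded to between 0.0959 and 0.406 CPM (counts per 1e6 counts of a library, scaled by the TMM method). Intervals and floors cover counting error only. Of the markers with a row, 11 of 11 epithelial, 9 of 9 ciliated cell, 7 of 7 smooth muscle and 9 of 9 fibroblast and stroma markers passed the filter. So did 7 of 7 endothelial and 8 of 9 immune cell markers. Since 12783 of the 15623 genes with a symbol also passed, these counts show detection and do not identify the tissue. The secretory list was thin, since SCGB1A1 had no count in any library and MSX1 did not pass the filter. OVGP1, oviductin, the abundant secretory product of the oviduct, stood at 7302, 156 and 10688 CPM in post-ovulatory libraries and 292, 1017 and 2356 CPM in the early luteal ones; the stages overlapped (log2 fold change -2.31 ± 1.22, SE; edgeR, adjusted p = 0.711), and its part in the members' values was not tested. Early luteal replicate 2 stood apart: of the 17920 tested genes, 39.4% had their lowest CPM in it and 27.0% their highest. It also had the highest share of mitochondrial counts (7.54%, with 3.47% to 6.92% elsewhere), the highest share taken by its 10 most abundant genes (17.7%, with 11.3% to 13.1% elsewhere) and the fewest genes with a count (21658, with 23373 to 26524 elsewhere). The part of these in its values was not tested. Among the 10 members it was the lowest library for 5 (TGFA, HBEGF, EGFR, ERBB2 and ERRFI1) and the highest for 2 (EREG and BTC). For the members whose lowest or highest library it was, the log2 fold change is given with and without it. Other values that may lean on it are not all given without it. Values per library are given in the order of replicates 1, 2 and 3.

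None of the 9 tested members passed the threshold of 0.05 for the Benjamini-Hochberg adjusted p, taken over all genes tested with edgeR (quasi-likelihood). The background was the same, since 0% of all tested genes passed. The receptors held the clearest separation. ERBB3 was higher in every early luteal library than in any post-ovulatory one, EGFR was lower in every early luteal library, and ERBB2, the ligands and ERRFI1 overlapped between the stages. At an unadjusted p under 0.05 the test counted 1 of the 9 members (ERBB3), where 7.11% of all tested genes were counted. The stages did not overlap for 2 of the 9 members, where 17.2% of all tested genes did not overlap, so neither count sets the members apart from the background. DESeq2, which called 1.02% of the genes it gave an adjusted p, called 0 members. The median log2 fold change (early luteal minus post-ovulatory) was -0.045 over the 9 tested members, 4 of them above and 5 below 0, and -0.026 over all tested genes.

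**Figure D1:**
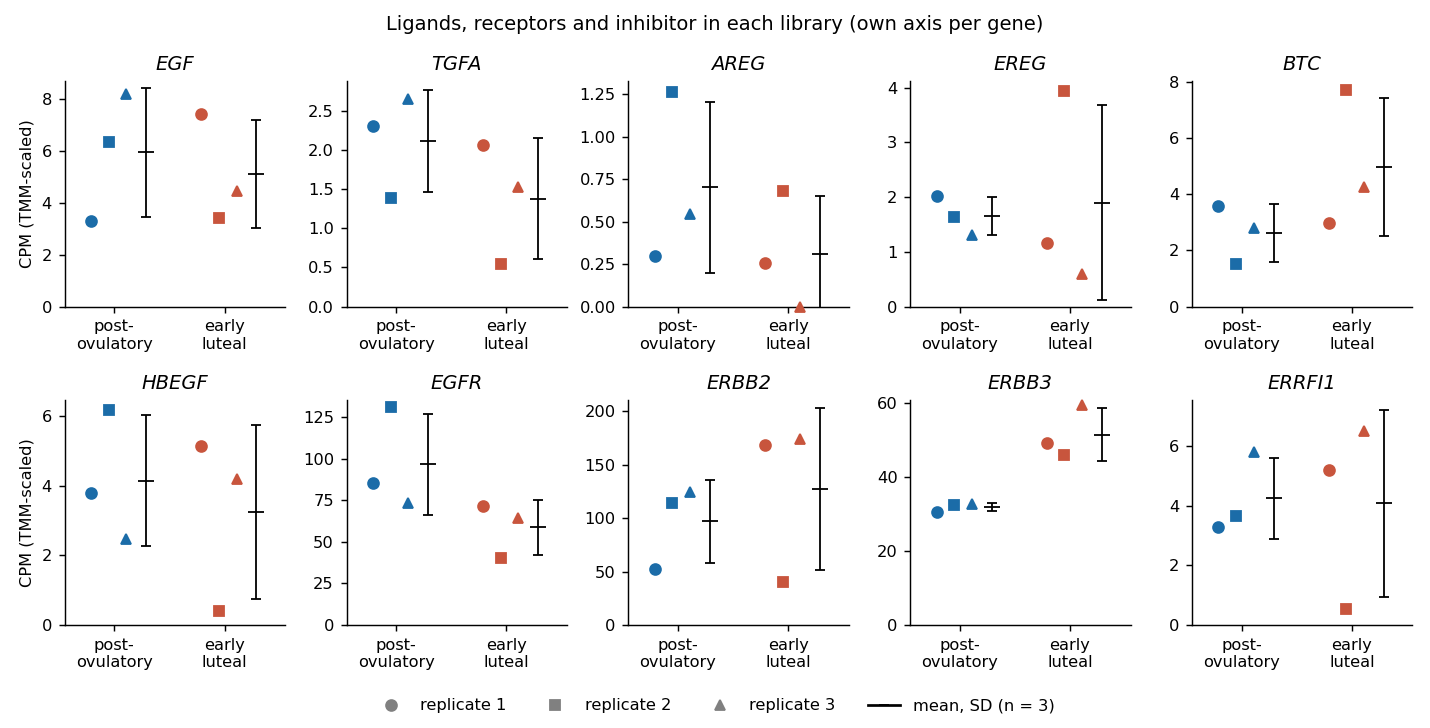
CPM of each member in each library, by stage, with an axis of its own for each gene that starts at 0; symbols mark the replicate and the bar gives the mean and SD of 3 libraries. The ERBB3 libraries separate by stage (45.8 to 59.4 early luteal, 30.6 to 32.8 post-ovulatory), and early luteal replicate 2 (square) is far below its group for HBEGF, ERBB2 and ERRFI1.

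ERBB3, a receptor for the neuregulin NRG1, stood at 30.6, 32.3 and 32.8 CPM in post-ovulatory replicates 1, 2 and 3. In early luteal replicates 1, 2 and 3 it stood at 49.1, 45.8 and 59.4 CPM. The post-ovulatory libraries were nearly equal, and their exact (Clopper-Pearson) 95% counting intervals of 27.7 to 33.7, 28.5 to 36.5 and 30.8 to 34.8 CPM overlapped one another. The stage means were 51.4 ± 7.12 CPM (early luteal; SD, n = 3) and 31.9 ± 1.15 CPM (post-ovulatory), a 1.61-fold higher early luteal level. Its log2 fold change was 0.69 ± 0.25 (SE; edgeR, adjusted p = 0.680, unadjusted p = 0.0231; DESeq2 adjusted p = 0.304). ERBB3 had the lowest gene-wise variation of the tested members, with a biological coefficient of variation (the spread between libraries beyond counting error) of 0.264. Early luteal replicate 2, which was the lowest or highest library for 7 of the 10 members, lay with its group here, and without it the log2 fold change was 0.76 ± 0.18 (edgeR, adjusted p = 0.586). ERBB3 lies at chr5:21474218-21495040 (Sscrofa11.1, gene positions here and below from RefSeq, matched by symbol).

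EGFR, the receptor shared by all 6 ligands, had the opposite order. It stood at 85.3, 131 and 73.2 CPM in post-ovulatory replicates 1, 2 and 3, and at 71.7, 40.1 and 64.2 CPM in the early luteal replicates. The stages separated by little: the highest early luteal library (replicate 1, counting interval 67.5 to 76.0 CPM) and the lowest post-ovulatory one (replicate 3, 70.2 to 76.2 CPM) could not be told apart by their counts. The early luteal mean of 58.7 ± 16.5 CPM (SD, n = 3) was 1.64-fold lower than the post-ovulatory mean of 96.5 ± 30.5 CPM. The fitted log2 fold change was -0.71 ± 0.33 (SE; edgeR, adjusted p = 0.685, unadjusted p = 0.0607). Post-ovulatory replicate 2 and early luteal replicate 2 carried much of it, since the value was -0.44 ± 0.34 without the first and -0.51 ± 0.29 without the second (edgeR, adjusted p = 0.865 and 0.656). EGFR lies at chr9:139302410-139474632.

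ERBB2, the partner receptor, stood at 52.3, 114 and 125 CPM in post-ovulatory libraries and at 168, 40.2 and 174 CPM in the early luteal ones. Early luteal replicates 1 and 3 were the highest of all libraries and early luteal replicate 2 the lowest, so the libraries of a stage spread by more than the gap between the early luteal mean of 127 ± 75.4 CPM and the post-ovulatory mean of 96.9 ± 39.1 CPM (SD, n = 3). The log2 fold change was 0.39 ± 0.55 (SE; edgeR, adjusted p = 0.877). Without early luteal replicate 2 it was 0.82 ± 0.37 and the remaining libraries did not overlap, still short of the threshold (edgeR, adjusted p = 0.605). ERBB2 lies at chr12:22591621-22621384. GRB7, an adaptor that binds ERBB2, ends 8.23 kb before it, with 1 gene (MIEN1) between them. GRB7 stood at 6.92, 10.7 and 14.1 CPM in post-ovulatory libraries and 29.3, 13.8 and 35.7 CPM in the early luteal ones, with the same order of libraries within each stage as ERBB2. Its log2 fold change was 1.31 ± 0.46 (SE; edgeR, adjusted p = 0.677) and 1.61 ± 0.33 without early luteal replicate 2 (edgeR, adjusted p = 0.556), which lay just under post-ovulatory replicate 3.

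ERBB4, the fourth receptor of the family and no member of the list, was higher in all early luteal libraries, like ERBB3. It stood at 4.62, 8.08 and 8.86 CPM in post-ovulatory libraries and 13.3, 11.5 and 10.97 CPM in the early luteal ones (log2 fold change 0.73 ± 0.43, SE; edgeR, adjusted p = 0.736). The receptors were also set against each other within each library, where scaling and gene length cancel between libraries; these 6 ratios were chosen after the values were seen and carry no test. ERBB3 counts were 0.359, 0.247 and 0.448 times the EGFR counts in the post-ovulatory libraries and 0.685, 1.14 and 0.925 times in the early luteal ones. ERBB4 counts were 0.0541, 0.0617 and 0.121 times the EGFR counts in post-ovulatory and 0.185, 0.287 and 0.171 times in early luteal replicates. In both ratios every early luteal library lay above every post-ovulatory one, by 2.61 and 2.71 times between the means. The separation was fixed beforehand by ERBB3 and ERBB4 being higher, and EGFR lower, in every early luteal library. It therefore adds no support to those differences. The other 4 ratios, of ERBB2 to each receptor and of ERBB3 to ERBB4, overlapped between the stages.

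**Figure D2:**
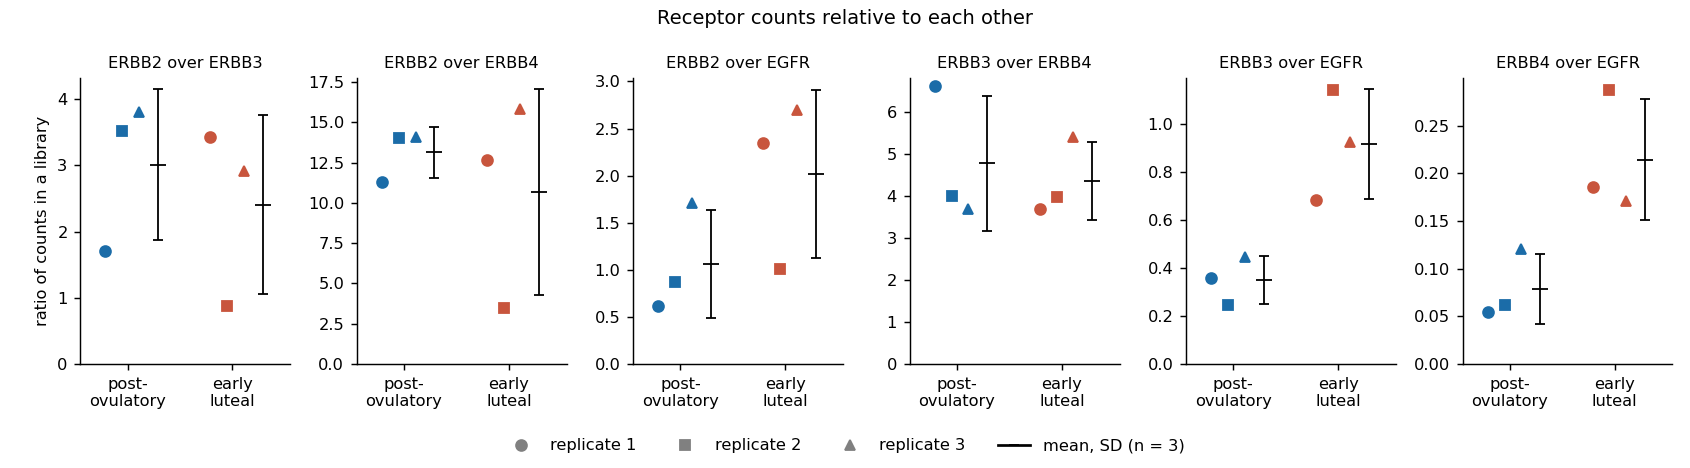
Ratio of the counts of 2 receptors within each library, by stage, with the mean and SD of 3 libraries; each panel has an axis of its own from 0. ERBB3 over EGFR (0.247 to 0.448 post-ovulatory, 0.685 to 1.14 early luteal) and ERBB4 over EGFR separate by stage, and the 4 other ratios overlap. The separations follow from the levels of the receptors themselves.

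In whole tissue, fewer cells of a type and less RNA per cell cannot be told apart. Most stromal, immune and endothelial markers had negative log2 fold changes, and which cells carried EGFR was not tested. Of the 9 fibroblast and stroma markers 8 had a negative log2 fold change (median -0.58). Their summed level separated by a narrow margin, at 1504, 1683 and 1440 CPM (early luteal) and 2707, 3216 and 1701 CPM (post-ovulatory). In edgeR 0 of these 9 passed the threshold and 4 had an unadjusted p under 0.05, all lower, where 7.11% of all tested genes were counted. The stages did not overlap for 5 of the 9, all lower, where 17.2% of all tested genes did not. DESeq2 called 2 of the 9, where it called 1.02% of all genes it gave an adjusted p. These were the collagen gene COL1A1, 3.87-fold lower in early luteal means (DESeq2 adjusted p = 0.0071), and PI16, 6.72-fold lower (DESeq2 adjusted p = 0.031). PI16 rests on few counts, 29 over the early luteal and 205 over the post-ovulatory libraries. The log2 fold change was negative for 8 of 8 immune cell markers (median -0.60). Their sums were 130, 38.1 and 37.8 CPM in the early luteal libraries and 68.2 to 135 CPM in the post-ovulatory ones. Of the endothelial markers 5 of 7 had a negative log2 fold change (median -0.49). Early luteal sums were 397 to 568 CPM and post-ovulatory sums 359 to 577 CPM. Of the smooth muscle markers 6 of 7 had a positive log2 fold change (median 0.61). Their sums were 1590, 9052 and 12040 CPM in the early luteal libraries and 3735 to 7051 CPM in the post-ovulatory ones. Early luteal replicate 1 thus differed from its group in muscle and immune marker levels. No immune, endothelial or smooth muscle marker passed the threshold in edgeR or DESeq2, and the sums of each of these lists overlapped between the stages. The part of the marker lists in the receptor values was not tested. Set against the stromal sum, EGFR overlapped between the stages, at 31.5, 40.7 and 43.0 CPM per 1000 CPM of stromal markers in the post-ovulatory libraries and 47.7, 23.8 and 44.6 in the early luteal ones. The overlap rested on early luteal replicate 2, since the other early luteal libraries lay above every post-ovulatory one. The epithelial markers were split, 6 of 11 higher in early luteal tissue (median log2 fold change 0.013), with a summed level of 2305 to 2829 CPM in early luteal against 1949 to 2650 CPM in post-ovulatory libraries. Set against the epithelial sum, ERBB3 was separated by a narrow margin, at 15.0, 16.6 and 12.4 CPM per 1000 CPM of epithelial markers in the post-ovulatory libraries and 17.3, 17.9 and 25.8 in the early luteal ones. EGFR against the epithelial sum overlapped (41.9, 67.2 and 27.6 against 25.3, 15.7 and 27.9). ERBB4 against the epithelial sum was higher in every early luteal library, and ERBB2 overlapped against either sum. Against the stromal sum, itself lower in every early luteal library, ERBB3 and ERBB4 could not but be higher there. These 8 ratios, for 4 receptors and both lists, were chosen after the values were seen and carry no test.

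None of the 6 ligands of the list exceeded 8.18 CPM in any library, and none separated by stage. BTC, betacellulin, had the largest fitted change among those tested. It stood at 3.57, 1.52 and 2.78 CPM in post-ovulatory libraries and 2.96, 7.72 and 4.26 CPM in the early luteal ones, from 48, 12 and 87 and from 46, 57 and 64 counts. Early luteal replicates 2 and 3 were the highest of the 6, while early luteal replicate 1 lay inside the post-ovulatory range. The fitted log2 fold change was 0.90 ± 0.62 (SE; edgeR, adjusted p = 0.763) and 0.45 ± 0.55 without early luteal replicate 2 (edgeR, adjusted p = 0.833).

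EREG, epiregulin, stood at 2.01, 1.64 and 1.31 CPM in post-ovulatory libraries and 1.16, 3.93 and 0.598 CPM in the early luteal ones. Early luteal tissue thus held both the highest and the 2 lowest libraries. The fitted log2 fold change of 0.16 ± 0.81 (SE; edgeR, adjusted p = 0.972) turned to -0.90 without early luteal replicate 2, so EREG has no settled direction here. AREG, amphiregulin, was at the edge of detection, with 4, 10 and 17 counts (0.298, 1.26 and 0.544 CPM) in post-ovulatory and 4, 5 and 0 counts in early luteal replicates. The early luteal values were 0.258 and 0.677 CPM and a count of 0 in replicate 3, which allows up to 0.199 CPM. Fitted with no filter on low counts, the log2 fold change of AREG was -1.26 ± 1.47 (SE; edgeR, adjusted p = 0.795).

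BTC, EREG and AREG are neighbours in the genome. With EPGN, the ligand epigen, they lie in 431 kb of chromosome 8: EPGN at chr8:70266867-70301250, EREG at chr8:70351316-70372530, AREG at chr8:70417935-70428106 and BTC at chr8:70645721-70697538. Their levels did not order the libraries alike. EPGN averaged 4.21 ± 1.54 CPM (SD, n = 3) in post-ovulatory and 4.99 ± 0.503 CPM in early luteal tissue, and while BTC and EREG were both highest in early luteal replicate 2, AREG was highest in post-ovulatory replicate 2.

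HBEGF, the heparin-binding ligand, stood at 3.80, 6.19 and 2.46 CPM in post-ovulatory libraries and 5.15, 0.406 and 4.19 CPM in the early luteal ones. The value of early luteal replicate 2 rests on 3 counts (counting interval 0.0838 to 1.19 CPM), while the 5 other libraries lay between 2.46 and 6.19 CPM. The log2 fold change was -0.32 ± 0.84 with it and 0.18 ± 0.54 without it (SE; edgeR, adjusted p = 0.937 and 0.935). HBEGF lies at chr2:142102455-142115192.

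TGFA, transforming growth factor alpha, stood at 2.31, 1.39 and 2.65 CPM in post-ovulatory libraries and 2.06, 0.542 and 1.53 CPM in the early luteal ones. Early luteal replicate 2, with 4 counts, was again the lowest, and the log2 fold change was -0.60 ± 0.70 with it and -0.25 ± 0.55 without it (SE; edgeR, adjusted p = 0.852 and 0.912). EGF itself stood at 3.28, 6.32 and 8.18 CPM in post-ovulatory libraries and 7.41, 3.39 and 4.45 CPM in the early luteal ones. The lowest EGF library was post-ovulatory replicate 1, close to early luteal replicate 2, and the stages were intermixed (log2 fold change -0.22 ± 0.57, SE; edgeR, adjusted p = 0.936). TGFA lies at chr3:71948232-72054257 and EGF at chr8:112235607-112330062, away from the ligand cluster.

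ERRFI1, the inhibitor, stood at 3.28, 3.66 and 5.82 CPM in post-ovulatory libraries and 5.22, 0.542 and 6.52 CPM in the early luteal ones. As with HBEGF, early luteal replicate 2 (4 counts) was far below the rest. For ERRFI1 the log2 fold change was -0.045 ± 0.80 (SE; edgeR, adjusted p = 0.992) and 0.45 ± 0.46 without that library (edgeR, adjusted p = 0.791). ERRFI1 lies at chr6:68667651-68682629.

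**Figure D3:**
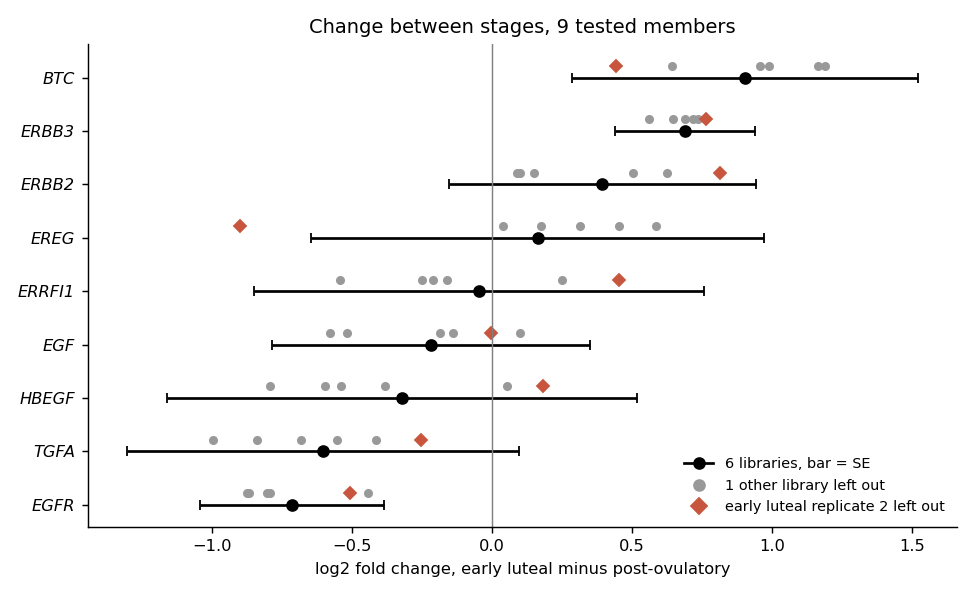
Log2 fold change (early luteal minus post-ovulatory) of the 9 tested members with its SE (black), and the value with each library left out in turn (grey; red diamonds for early luteal replicate 2). ERBB3 (0.69), EGFR (-0.71), ERBB2, BTC and TGFA keep their side of 0 in all 6 refits. EREG, HBEGF and ERRFI1 change sign without early luteal replicate 2. HBEGF also does so without post-ovulatory replicate 2, and EGF and ERRFI1 without post-ovulatory replicate 3.

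Immediate early genes, which growth factors and tissue handling both induce, were uneven between libraries, and HBEGF and ERRFI1 belong to the same class of quickly induced genes. Of the 14 tested immediate early genes 12 had a positive log2 fold change (median 1.08, against -0.026 over all tested genes). In edgeR 0 passed the threshold and 1 had an unadjusted p under 0.05, where 7.11% of all tested genes were counted. That gene was ATF3, at 61.0, 66.6 and 16.3 CPM in post-ovulatory libraries and 27.2, 260 and 239 CPM in the early luteal ones. BTG2 stood at 36.0 ± 26.5 CPM in early luteal against 11.2 ± 6.84 CPM in post-ovulatory tissue (SD, n = 3), and JUN at 324 ± 133 CPM in early luteal against 189 ± 41.2 CPM in post-ovulatory tissue; both overlapped. The mean centred log2 CPM of the list was -0.21, 0.38 and -1.30 in the post-ovulatory replicates, and -0.81, 0.66 and 1.27 in the early luteal ones. The smooth muscle markers had a similar order, at 0.012, 0.51 and -0.50 in the post-ovulatory replicates and -1.94, 0.65 and 1.27 in the early luteal ones. The part of muscle content in the immediate early values was not tested. HBEGF and ERRFI1 did not share the order of the immediate early genes. Both were lowest in early luteal replicate 2, where the immediate early genes were second highest. In the same library the mean centred log2 CPM of the immune, ciliated cell and endothelial markers was at its lowest. So was that of the epithelial markers (-0.98, with -0.10 to 0.46 elsewhere). The epithelial list was split there: CLDN3, CLDN4, CLDN7, ELF3, KRT8, KRT18 and RAB25 had their lowest level of the 6 libraries, while EPCAM (1093 CPM), CDH1 (785 CPM) and ESRP1 (89.7 CPM) had their highest. The summed epithelial level of 2555 CPM lay inside the range of the others. The part of this in the low HBEGF, ERBB2 and ERRFI1 values was not tested.

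**Figure D4:**
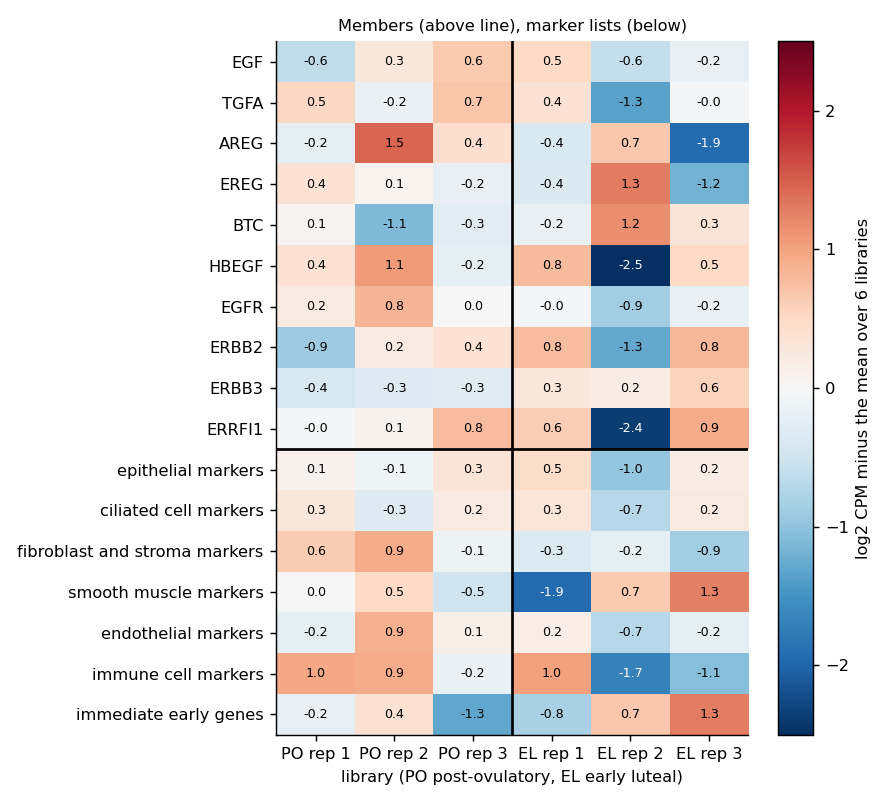
Log2 CPM of each member minus its mean over the 6 libraries (above the line), and the same averaged over the tested genes of marker lists (below); red is higher and blue lower than the gene's mean. Early luteal replicate 2 holds the lowest values for HBEGF (-2.5) and ERRFI1 (-2.4). It also holds the lowest mean epithelial (-0.98), immune (-1.68), ciliated cell (-0.71) and endothelial (-0.72) scores, although the summed epithelial CPM was not lowest there.

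The genes whose pattern over the 6 libraries was most like that of a member were found by the root mean square (RMS) difference of centred log2 CPM among genes with a symbol and at least 5 CPM on average. For ERBB3 these were USP53 (RMS difference 0.070) and RETREG1 (0.075); USP53 had levels of 38.2, 39.4 and 41.9 CPM in post-ovulatory libraries and 65.8, 63.1 and 71.7 CPM in the early luteal ones. For EGFR they were DENND3 (0.078) and RASIP1 (0.099), for ERBB2 PFKFB4 (0.082) and IZUMO4 (0.11), and for BTC SPTSSA (0.083) and GK5 (0.12). For TGFA they were CDR2L (0.095) and DNAJB13 (0.11). The differences were larger for ERRFI1 (CDC42BPG, 0.13, and MCRIP1, 0.15), EGF (TRIM34 and DEF6, 0.18 each), HBEGF (SLC66A1, 0.21, and MYD88, 0.23) and EREG (RAB14, 0.21, and POLR2K, 0.23). With 6 libraries and 10713 or 10714 candidate genes a close match of this kind is a description only.

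The other genes of the pathway, with the immediate early genes, were read from lists of 84 genes, of which 82 had a row and 78 were tested. In edgeR 0 of the 78 passed the threshold, 44 had a positive and 34 a negative log2 fold change, and 5 had an unadjusted p under 0.05, all higher in early luteal tissue. Of all tested genes 7.11% had such a p, so the count does not set these lists apart from the background. The stages did not overlap for 14 of the 78, 7 in each direction, close to the 17.2% of all tested genes. Of the other ligands, NRG1, a neuregulin that binds ERBB3 and ERBB4, averaged 4.15 ± 1.31 CPM (SD, n = 3) in post-ovulatory and 5.09 ± 1.74 CPM in early luteal tissue. NRG4, which binds ERBB4, was nearly equal at 11.6 ± 2.07 CPM (early luteal) and 11.5 ± 4.84 CPM (post-ovulatory). NRG2 and NRG3 did not pass the filter.

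Genes of ligand release, with the protease inhibitor TIMP3 among them, were mixed, 3 of 9 higher and 6 lower (median log2 fold change -0.062, the value of TIMP3). ADAM9, a membrane metalloprotease, was higher in all early luteal libraries but mainly in replicate 2, at 28.0, 26.1 and 25.5 CPM in post-ovulatory libraries and 31.7, 80.9 and 32.6 CPM in the early luteal ones (log2 fold change 0.86 ± 0.40, SE; edgeR, adjusted p = 0.685). Without that library the value was 0.27 ± 0.19 (edgeR, adjusted p = 0.692). Where a pair of means is given here and below without naming the stages, the early luteal value comes first. ADAM12 stood at 1.89 ± 1.02 against 4.85 ± 4.53 CPM (SD, n = 3), and its log2 fold change of -1.35 was -0.26 without post-ovulatory replicate 1 (9.98 CPM). TIMP3, an inhibitor of these proteases, varied as much within as between the stages, at 176 ± 83.3 against 183 ± 86.1 CPM.

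Among the adaptors and the RAS-ERK cascade 4 of 16 were higher and 12 lower (median -0.14). GAB1, a docking protein that links the receptors to phosphoinositide 3-kinase, stood at 49.8, 75.7 and 79.8 CPM in post-ovulatory libraries and 112, 112 and 100.1 CPM in the early luteal ones, with no overlap (log2 fold change 0.66 ± 0.26, SE; edgeR, adjusted p = 0.685).

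In the phosphoinositide 3-kinase, phospholipase and STAT branch 3 of 8 were higher and 5 lower (median -0.54), and catalytic and regulatory subunits differed in sign. PIK3CB, a catalytic subunit, stood at 27.3, 24.5 and 31.1 CPM in post-ovulatory libraries and 42.0, 67.2 and 50.3 CPM in the early luteal ones (log2 fold change 0.94 ± 0.28, SE; edgeR, adjusted p = 0.649). The regulatory subunit PIK3R2 had no overlap in the other direction, at 33.4 ± 1.18 CPM (SD, n = 3) in early luteal against 51.6 ± 17.2 CPM in post-ovulatory tissue, and PIK3R1 stood at 203 ± 63.3 against 304 ± 85.6 CPM.

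Genes of receptor turnover and feedback were mostly higher, 10 of 12, by little (median 0.22). PTPRJ, a receptor-type phosphatase that acts on receptor tyrosine kinases including EGFR, had the lowest p of the pathway genes. It stood at 31.5, 42.1 and 36.6 CPM in post-ovulatory libraries and 65.3, 77.6 and 62.0 CPM in the early luteal ones, with no overlap, and early luteal replicate 2 lay with its group (log2 fold change 0.90 ± 0.25, SE; edgeR, adjusted p = 0.632). LRIG1, a membrane protein that promotes loss of the receptors, stood at 272 ± 30.0 against 234 ± 59.6 CPM (SD, n = 3) and overlapped. Of the genes known as transcriptional output of the ERK pathway, 8 of 15 were higher and 7 lower (median 0.068). DUSP5, an ERK phosphatase, stood at 7.68 ± 6.55 against 3.65 ± 1.03 CPM, ETV5, a transcription factor, at 11.7 ± 6.84 against 6.79 ± 2.25 CPM, and the feedback inhibitor SPRY1 at 178 ± 27.2 against 170.2 ± 57.9 CPM; all 3 overlapped between the stages. Without early luteal replicate 3, the highest library for both, the log2 fold change went from 1.07 to 0.12 for DUSP5 and from 0.79 to 0.18 for ETV5.

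**Figure D5:**
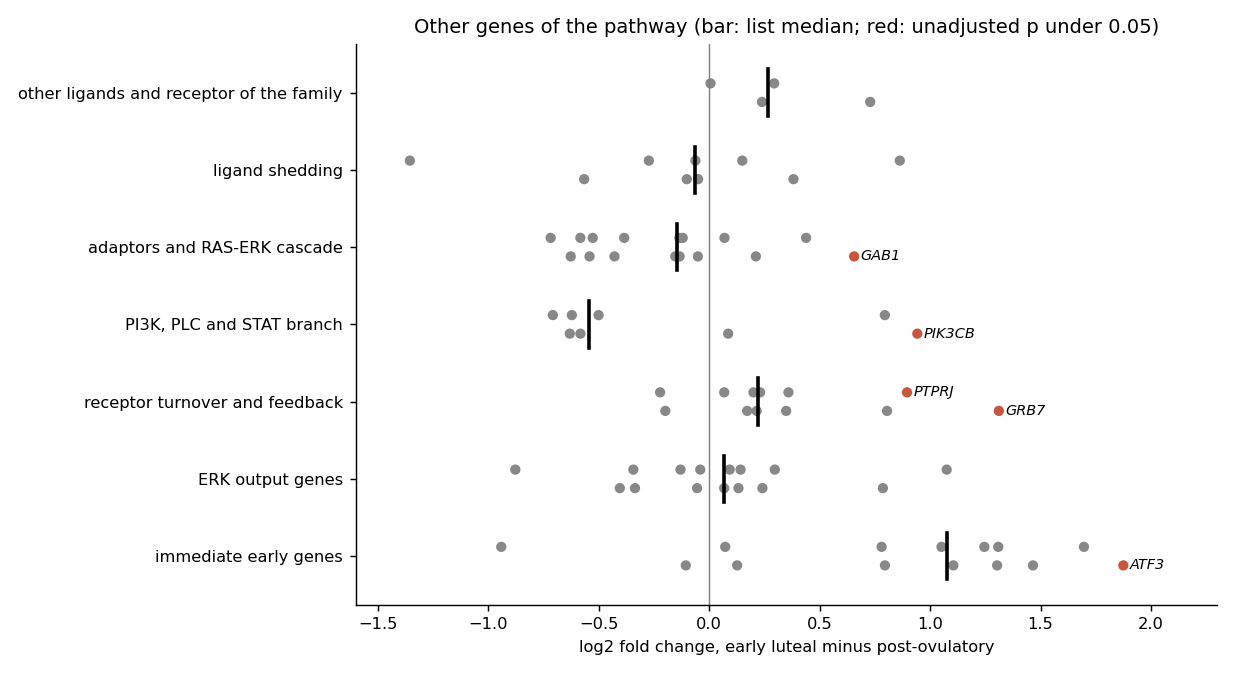
Log2 fold change (early luteal minus post-ovulatory) of each tested gene of the 7 pathway and immediate early lists; the black bar is the list median and red points have an unadjusted p under 0.05 in edgeR. The 5 red genes (GAB1, PIK3CB, PTPRJ, GRB7 and ATF3) lie right of 0, and none passed the threshold after adjustment. Of all tested genes 7.11% had an unadjusted p under 0.05.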

How the data were processed

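The authors deposited raw read counts for each Ensembl gene in 1 table, without normalization. STAR, Trim Galore, FastQC 0.11.4 and the build Sscrofa11.1 are named per the submitters' processing notes; per the labels' protocols the libraries were stranded and polyadenylated RNA was read in pairs. How reads were counted (tool, strand, annotation) was not given in the sources used here; overlapping, antisense or near-identical genes are therefore uncertain. The header lacks a tab, so columns were taken by position, and the header name of early luteal replicate 3 is short of 1 letter. No value column was left unused.

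Symbols came from a table pairing Ensembl identifiers with names (15623 matched); all 10 members were found. Transcript lengths were not used here, so levels are not compared between genes. Sequences were not used here.

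The test was edgeR 4.0.16's quasi-likelihood test (R 4.3.3, robust, TMM, filterByExpr, two-sided, Benjamini-Hochberg over 17920 genes, threshold 0.05), tested on simulated data. SE was derived from the log2 fold change and the F statistic. Centred log2 CPM used a prior count of 2. DESeq2 1.42.0 and limma 3.58.1 voom were alternatives, with other scalings, filters, the replicate block and each library left out. Members and lists were chosen with earlier results of these data known. Named genes are all members and, per pathway list, the 2 lowest p and the highest mean CPM. For each tested member, the 2 genes of most similar pattern are also named. Other marker and context genes are given by count, apart from marker genes singled out after their values were seen (the secretory, stromal and epithelial markers named in the text), and some genes the rule names are not reported here.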

Additional observations from a re-analysis of the deposited data

How the results depend on the processing

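Depth limits several members: AREG had 31 counts in post-ovulatory and 9 in early luteal tissue, and HBEGF, TGFA and ERRFI1 had 3 to 4 counts in early luteal replicate 2. Over all genes edgeR called 0; 8 were called with no filter on low counts, 177 with DESeq2 and 9 with limma voom and sample quality weights. The members called were 0 under every alternative run, as were the pathway and immediate early genes; for members the lowest adjusted p under any alternative was 0.168 (ERBB3, limma voom with sample quality weights). EGFR, ERBB2, ERBB3, BTC and TGFA kept their sign under all alternatives, among them the 6 fits that leave out 1 library.

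The signs of 4 tested members did not hold; the cause was not tested. EREG was -0.24 with the replicate block, -0.35 with limma voom and -0.81 with sample quality weights. HBEGF was 0.43 with sample quality weights. ERRFI1 was 0.014 with library totals alone and 0.11 with sample quality weights. With 1 library left out in turn, EGF ran from -0.58 to 0.10, EREG from -0.90 to 0.59, HBEGF from -0.79 to 0.18 and ERRFI1 from -0.54 to 0.45. Among pathway genes, NRG4 was -0.052 with no filter and -0.0080 with DESeq2 (-0.16 to 0.39 with 1 library left out). With sample quality weights TIMP3 was 0.16 (-0.51 to 0.38) and SPRY1 -0.13 (-0.20 to 0.25). The list medians moved by more than the spread between replicates in 3 cases: the other ligands and ERBB4 without post-ovulatory replicate 3 (0.55), and the phosphoinositide 3-kinase branch with sample quality weights (-0.29) and without early luteal replicate 2 (-0.22).

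The replicate numbers are shared by the stages, but the deviations of same-numbered libraries correlated at 0.052, -0.082 and 0.13, and not every library correlated best with its own number, so they were not taken as pairs. With the replicate block 0 genes and 0 members were called, and 1043 genes had an unadjusted p under 0.05 against 1275 without it. The planned shares of the receptor and ligand pools were not run, because they need transcript lengths.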
